A study of Mus musculus with 16 samples.

Results

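The genes described here are 48 genes of PPAR-alpha signalling and fatty acid oxidation, chosen by name as members of this pathway. All probes of each gene on a mouse whole genome array were found through the RefSeq accession of the probe, and the brightest probe was read. The 48 genes are part of 19096 genes that the array's probes could be matched to. They fall into 7 regulators and signal genes (Ppara and PPAR-alpha targets outside the oxidation pathways), 14 peroxisomal genes, 15 mitochondrial genes, 4 Cyp4a genes and 8 genes of fatty acid uptake and activation. RNA came from liver outside tumours of 16 male mice, 4 in each of 4 groups, with 1 array per mouse. Mice were wild type (WT) C57BL/6J or carried a null allele of Gadd45b in every cell (KO). The supplier's name for the KO stock includes an inbred strain other than C57BL/6, while elsewhere in the study the line is called C57BL/6J, so strain and genotype cannot be told apart. All mice, controls included, received the liver carcinogen N-diethylnitrosamine (DEN) at 90 mg/kg at 5 weeks of age. In the DEN + PB groups phenobarbital (PB), a drug that activates the nuclear receptor CAR, was given in drinking water at 0.5 g/l from 7 weeks, and the DEN groups drank normal water. Livers were taken at 57 weeks. Groups are named below by genotype and treatment, such as KO DEN.

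PPAR-alpha is a nuclear receptor that binds fatty acids and, as a heterodimer with RXR, turns on genes for the uptake and burning of fat. In liver it is most active in fasting, when fat from adipose tissue reaches the hepatocyte. Very long fatty acids are shortened in peroxisomes, long and medium ones are burnt in mitochondria after the carnitine shuttle, and Cyp4a enzymes oxidise the far end of the chain. The level of many of these genes also follows the time of day and the last meal.

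All 48 members were measured, and the brightest probe of each was well above background on all 16 arrays. Values are given as log2 signal relative to the 75th percentile of the array, so that 1 unit is a change of a factor of 2. Levels of different genes come from different probes and are not compared with each other. The signal of the targeted gene, Gadd45b, passed background on 8 of 8 arrays of WT mice and on none of the KO mice (0 of 8). The summed level of 8 hepatocyte markers lay between 10.40 and 10.7 in WT DEN + PB, 10.6 and 11.0 in WT DEN, 10.7 and 11.0 in KO DEN, and 10.7 and 11.1 in KO DEN + PB, and every KO array lay above the WT DEN + PB arrays. The 75th percentile signal ranged from 137 to 294 units between arrays, and 58.3 to 67.7% of probes per array were well above background. A gene was called where limma's adjusted p over all 24454 probes tested was under 0.05 and the change was at least 1.5-fold.

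PPAR-alpha and RXR bind a direct repeat of a 6-base site spaced by 1 base, whose consensus is AGGTCANAGGTCA (DR1, read on both strands). In RefSeq promoters (build GRCm38.p6, 250 bases before to 50 after each gene's start), 36 of the 48 members had an entry. A DR1 with at most 2 mismatches lay in 6 of these 36 members (16.7%) and in 1190 of 27025 genes in all (4.4%), counting every start of a gene. No member held an exact DR1, against 13 genes in all. The single site AGGTCA, which every exact DR1 also contains, lay in 9 of the 36 members (25%) and in 18.1% of all genes. The 250 bases before the start are shown for Fabp1, whose match is the closest among the members, for Cd36, and for Creb3l3, since the last is a regulator near Gadd45b. The capitals mark the match, 5′ to 3′ on the strand of the gene.
Fabp1, chr6:71199629-71199878, plus strand: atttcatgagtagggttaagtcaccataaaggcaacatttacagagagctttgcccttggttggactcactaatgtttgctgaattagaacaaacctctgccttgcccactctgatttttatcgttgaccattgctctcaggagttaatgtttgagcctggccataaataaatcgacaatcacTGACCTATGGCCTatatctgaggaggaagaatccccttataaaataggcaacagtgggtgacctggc
Cd36, chr5:17835897-17836146, minus strand: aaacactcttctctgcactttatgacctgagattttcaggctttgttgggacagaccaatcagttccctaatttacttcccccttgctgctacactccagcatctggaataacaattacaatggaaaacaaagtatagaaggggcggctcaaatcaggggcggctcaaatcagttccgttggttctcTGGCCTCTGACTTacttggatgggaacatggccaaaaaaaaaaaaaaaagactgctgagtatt
Creb3l3, chr10:81092592-81092841, minus strand: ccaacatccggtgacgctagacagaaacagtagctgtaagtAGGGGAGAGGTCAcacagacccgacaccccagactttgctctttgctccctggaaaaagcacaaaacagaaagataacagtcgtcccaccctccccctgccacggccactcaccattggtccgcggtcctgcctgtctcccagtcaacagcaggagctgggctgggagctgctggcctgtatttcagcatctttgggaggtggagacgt
The other matches were TGACCTTTGGCCG in Acot4, just before its start, and AGGACAGAGGTGA in Acox2 and AGGTGAAAGGTCG in Slc25a20, both just after it. Of these 6 genes, none was called in any comparison below.

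Few of the 48 genes changed. No peroxisomal, mitochondrial or Cyp4a gene was called in any of the 5 comparisons, and the calls fell on 5 genes: Ppara itself, Pdk4, Vnn1 and Ucp2 among the regulators and targets, and Lpl among the uptake genes. PB in WT liver gave 0 called members by limma and 0 by the linear model without moderation of the variances, where 0.737% of all 13304 genes tested were called, and 6 members had an unadjusted p under 0.05 (8.31% of all genes). PB in KO liver gave 2 called members against 2.13% of all genes: Lpl rose and Pdk4 fell. Under DEN alone 2 members, Vnn1 and Lpl, were lower in KO than in WT, against 2.76% of all genes. Under DEN + PB, Ppara was higher and Pdk4 and Ucp2 were lower in KO, so 3 members were called against 7.61% of all genes. The test of the difference between the PB effects of the 2 genotypes (WT minus KO, the interaction) called 0 members by limma and 0 without moderation. It called 0% of all genes, and 6 members had an unadjusted p under 0.05 (6.62% of all genes). With a count this small the shares of called members cannot be set apart from the background of their comparison. After normexp background correction in place of the processed signal all 7 calls kept their direction but none passed (adjusted p from 0.152 to 0.67), and the calls over all genes fell too, to 41 for PB in KO and 36 for KO minus WT under DEN + PB. On signals without scaling between arrays, the calls of Lpl, Vnn1 and Ppara were lost. The change was then 0.99 for Lpl with PB in KO, -1.10 for Lpl and -0.98 for Vnn1 in KO minus WT under DEN, and 0.39 for Ppara under DEN + PB (adjusted p from 0.161 to 0.387 by limma).

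**Figure D1:**
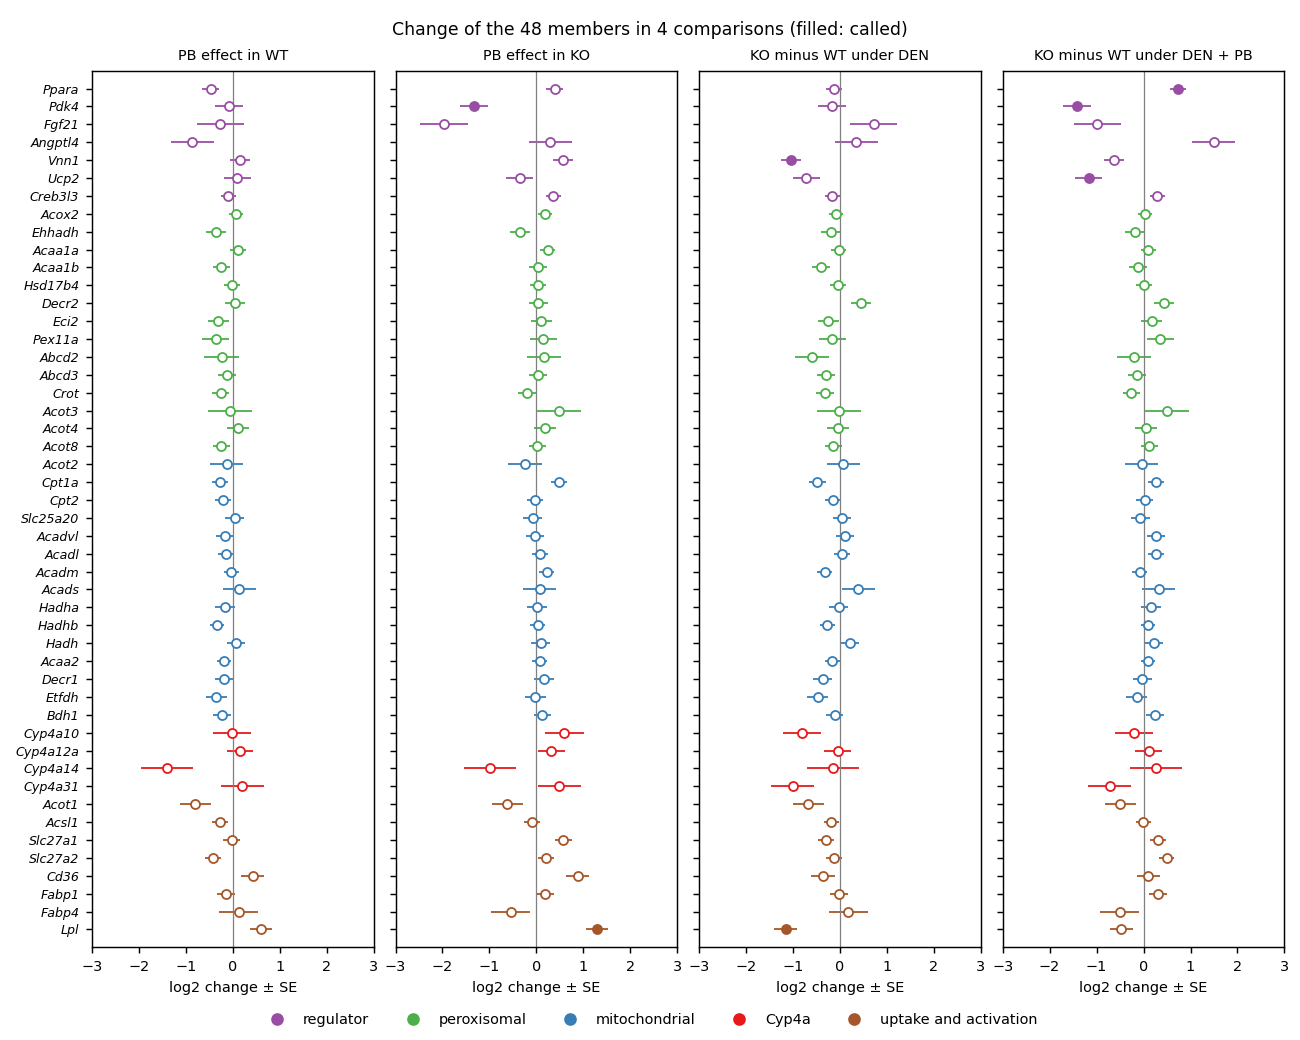
Log2 change with its standard error (horizontal axis) for each of the 48 members (rows, coloured by group) in 4 comparisons, from the fit over 16 arrays with 4 arrays per group. Filled circles are called genes: 0, 2, 2 and 3 in the panels from left to right, all of them regulators or uptake genes, while the peroxisomal and mitochondrial changes lie within 0.60 of 0.

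The median change over the 48 members was small in each comparison and depended on how arrays were scaled. For PB in WT it was -0.15 (34 of 48 members lower by sign, where 45.9% of all genes were higher) beside -0.02 over all genes, and with quantile normalization in place of the 75th percentile it was -0.06 (29 lower). For PB in KO it was 0.08 (34 higher, and 51.9% of all genes) beside 0.01 over all genes, and 0.02 (26 higher) with quantile normalization. The median of the interaction was -0.25 (40 of 48 below 0, where 44% of all genes were above it) beside -0.04 over all genes, and -0.08 (28 below 0) with quantile normalization. KO minus WT under DEN gave -0.15 (38 lower, where 45.1% of all genes were higher), and -0.12 (38 lower) with quantile normalization, but 0.06 (27 higher) after normexp background correction. KO minus WT under DEN + PB gave 0.07 (28 higher, and 53.6% of all genes), which turned to -0.06 (28 lower) with quantile normalization. The hepatocyte markers, none of them called except Tat under DEN + PB (higher in KO), had medians of -0.30 for PB in WT (4 of 8 at an unadjusted p under 0.05), 0.03 for PB in KO, -0.31 for the interaction, -0.04 for KO minus WT under DEN and 0.32 for KO minus WT under DEN + PB. For PB in WT, the interaction and the DEN + PB difference between genotypes, these lay on the same side of 0 as the members' medians and farther from it, and their part in the members' medians was not tested. On the signals without scaling between arrays the medians of all genes themselves shifted, by up to 0.40 for the interaction (from -0.04 to 0.35), and the members shifted by as much. Members that share arrays and pathways are not independent, and their medians carry no test.

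Ppara encodes the receptor itself. Its level read 4.99, 4.62, 4.66 and 4.59 on the WT DEN arrays and 4.20, 4.30, 3.83 and 4.63 with PB. In KO DEN it was 4.29, 4.58, 4.82 and 4.67, and with PB 4.68, 5.09, 5.02 and 5.11. The KO DEN + PB arrays all lay above the WT DEN + PB arrays, while the DEN groups overlapped. Under DEN + PB Ppara was 1.66-fold higher in KO (log2 change 0.73 ± 0.18 (SE), adjusted p = 0.0204 by limma, exact permutation p = 0.0286, two-sided, the smallest that 70 assignments of 4 against 4 arrays allow). The PB change itself was -0.47 ± 0.18 in WT and 0.39 ± 0.18 in KO, neither called (adjusted p = 0.474 and 0.399), and the interaction of -0.86 ± 0.25 had an adjusted p of 0.455. On unscaled signals the difference under DEN + PB was 0.39 (adjusted p = 0.387), and the summed level of the hepatocyte markers above was also higher on every KO DEN + PB array than on any WT DEN + PB array. The call was lost without WT DEN + PB replicate 3 (0.59, adjusted p = 0.0688), KO DEN + PB replicate 2 (0.69, 0.0644) or KO DEN + PB replicate 4 (0.69, 0.0616). Within slides, which hold 4 arrays each, the KO minus WT difference was 0.81, 0.05, 0.88 and 1.19.

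Pdk4 encodes a kinase that shuts off pyruvate dehydrogenase and so spares glucose when fat is burnt, and it is a classic PPAR-alpha target. It read 1.26, 1.48, 2.10 and 1.48 in WT DEN, 1.40, 1.60, 1.34 and 1.65 in WT DEN + PB, and 1.28, 1.30, 1.66 and 1.40 in KO DEN. In KO DEN + PB it read 0.99, -0.70, -0.49 and 0.52. The first 3 groups lay close together and all KO DEN + PB arrays lay below every other array, with replicates 2 and 3 lowest. Pdk4 fell 2.51-fold with PB in KO (-1.33 ± 0.30, adjusted p = 0.029 by limma), and under DEN + PB KO arrays were 2.67-fold below WT arrays (-1.42 ± 0.30, adjusted p = 0.0083). In WT the PB change was -0.08 ± 0.30, and the interaction of 1.25 ± 0.42 did not pass (adjusted p = 0.539). The PB call in KO was lost without any 1 of the KO DEN arrays or without KO DEN + PB replicate 2 or 3 (adjusted p from 0.0588 to 0.101). Within slides the PB change in KO was -0.78, -1.97 and -2.02, and the KO minus WT difference under DEN + PB was -1.08, -0.66, -2.10 and -1.84.

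Fgf21, a fasting hormone secreted by the liver, followed the same order of KO groups without a call. Its level was 1.49, 0.77, 3.07 and 0.63 in WT DEN and 0.55, 2.41, 1.40 and 0.52 in WT DEN + PB. It was 2.22, 2.11, 1.53 and 2.96 in KO DEN and 0.16, -0.36, 0.42 and 0.73 in KO DEN + PB. The KO groups did not overlap, and the WT groups overlapped over most of their range. The PB change in KO was -1.97 ± 0.50 (adjusted p = 0.061 by limma), with -1.98 and an adjusted p of 0.0947 on the other Fgf21 probe. In WT it was -0.27 ± 0.50, and the interaction was 1.70 ± 0.71 (adjusted p = 0.759). The PB change in KO passed at an adjusted p of 0.0173 without WT DEN replicate 3 and 0.0418 without WT DEN + PB replicate 2, the arrays with the highest Fgf21 of their groups. That change also passed on unscaled signals (-2.26, adjusted p = 0.0305 by limma), where all genes shifted as well. With only probes well above background on all 16 arrays it passed narrowly (adjusted p = 0.04999).

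**Figure D2:**
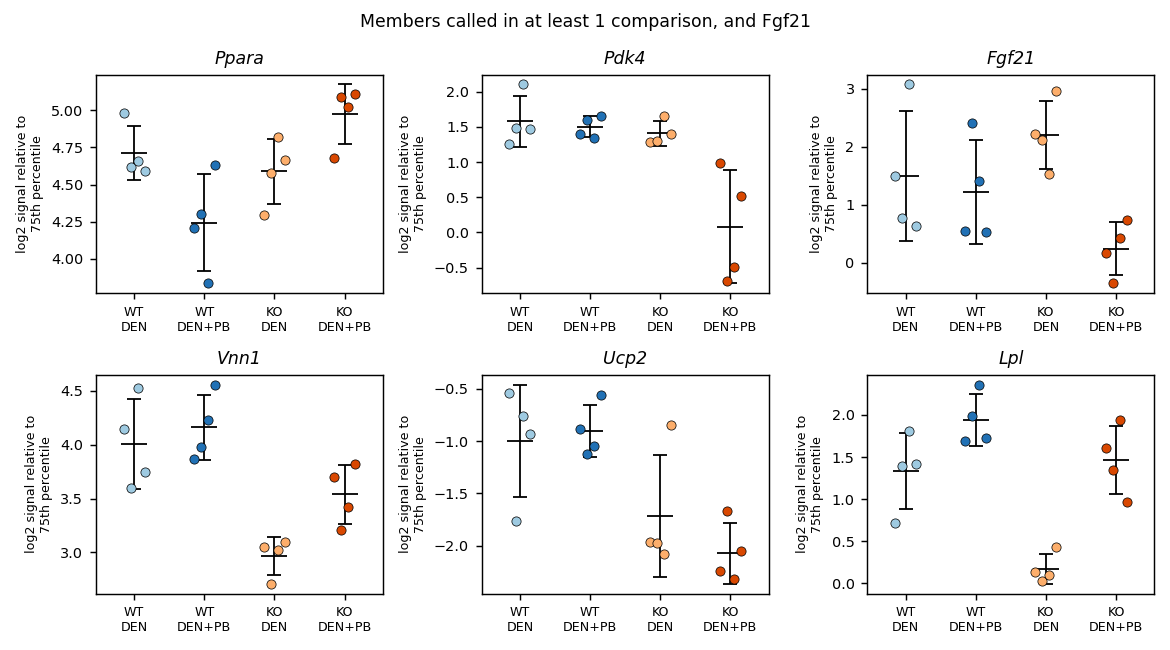
Log2 signal over the 75th percentile of each array (vertical axis) of the 5 members called in at least 1 comparison and of Fgf21, by group, with 1 point per array and bars for the mean ± SD of 4 arrays. Pdk4 and Fgf21 are lowest in KO DEN + PB, Lpl and Vnn1 are lowest in KO DEN, and Ucp2 is lower in KO DEN + PB than in WT DEN + PB without overlap. Vertical axes differ between panels.

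Vnn1 encodes a pantetheinase of the liver and is a strong PPAR-alpha target. It read 4.15, 3.60, 4.53 and 3.75 in WT DEN and 3.87, 3.98, 4.23 and 4.56 in WT DEN + PB. In KO it read 3.05, 2.71, 3.02 and 3.1 under DEN and 3.70, 3.21, 3.43 and 3.82 under DEN + PB. Under each treatment every KO array lay below every WT array. Vnn1 was 2.05-fold lower in KO under DEN (-1.04 ± 0.21, adjusted p = 0.0165 by limma), and under DEN + PB the difference of -0.62 ± 0.21 did not pass (adjusted p = 0.0927). With quantile normalization the DEN + PB difference did pass (-0.69, adjusted p = 0.0281). The DEN call was lost with slide as a block (-1.08, adjusted p = 0.0675), without WT DEN replicate 3 (-0.86, 0.0532) and without KO DEN replicate 2 (-0.95, 0.0569). Within the 2 slides that hold both groups the difference under DEN was -1.44 and -1.48. The WT DEN arrays of those slides were replicates 1 and 3, which had the highest Vnn1 of their group. Replicates 2 and 4 shared no slide with a KO DEN array. Vnn1 lies on chromosome 10, as Gadd45b does, 451 protein-coding genes away from it.

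Ucp2 encodes an uncoupling protein of the inner mitochondrial membrane, which in liver is known mainly from macrophages. It read -0.54, -1.77, -0.76 and -0.93 in WT DEN, and -0.89, -1.13, -1.05 and -0.56 in WT DEN + PB. In KO it read -1.96, -1.97, -2.08 and -0.85 under DEN, and -2.24, -1.67, -2.32 and -2.05 under DEN + PB. Under DEN + PB all KO arrays lay below all WT arrays, and under DEN the groups overlapped through WT replicate 2 and KO replicate 4. Ucp2 was 2.25-fold lower in KO under DEN + PB (-1.17 ± 0.29, adjusted p = 0.0209 by limma). Under DEN the difference was -0.72 ± 0.29 (adjusted p = 0.172). Without WT DEN + PB replicate 4 or KO DEN + PB replicate 3 the call was lost (adjusted p = 0.0721 and 0.0571). The other tested Ucp2 probe, well above background on 10 of 16 arrays, gave -1.90 (adjusted p = 0.0933).

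Several macrophage markers were also called lower in KO. Of 10 Kupffer cell and macrophage markers, all tested, 4 were called lower in KO under DEN and 7 under DEN + PB, with 0 called higher. Of all genes, 2.76% and 7.61% were called in these comparisons. Marco and Mpeg1 were not called, and their KO and WT values overlapped under each treatment. The summed level of the 10 markers was 6.08 to 7.88 in WT DEN and 6.37 to 6.61 in WT DEN + PB. In KO it was 5.53 to 6.03 under DEN and 5.52 to 6.19 under DEN + PB. Under each treatment the KO range thus lay below the WT range. The sum weighs the brightest markers most, such as Cd5l and Marco on WT DEN replicate 3 (6.45 and 6.49). Fewer cells of a type and less RNA per cell cannot be told apart in RNA of whole tissue. The part of these cells in the Ucp2 difference was not tested. Under DEN + PB markers of other cells were also called lower in KO, beside 7.61% of all genes called. These were 6 of 10 tested for stellate cells, 4 of 10 for endothelium and 4 of 7 for cholangiocytes (Epcam, Krt19, Krt7 and Tspan8).

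The other regulators were not called. Angptl4, an inhibitor of lipoprotein lipase that rises in fasting, ranged from 4.56 to 6.26 in WT DEN + PB and from 6.18 to 7.32 in KO DEN + PB, which overlap (1.5 ± 0.46, adjusted p = 0.0597 by limma). Creb3l3, a liver transcription factor that acts with PPAR-alpha on Fgf21, was 5.52 to 5.71 in KO DEN and 5.81 to 6.20 in KO DEN + PB (0.36 ± 0.17, adjusted p = 0.389). Creb3l3 lies on chromosome 10, only 6 protein-coding genes from the deleted gene, and its KO minus WT differences were -0.16 and 0.30, not called.

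Of the genes of fatty acid uptake and activation, 1 of 8 was called, in 2 comparisons. Lpl encodes lipoprotein lipase, the enzyme that frees fatty acids from circulating triglyceride, and adult hepatocytes normally hold little of it. It read 0.71, 1.40, 1.81 and 1.42 in WT DEN and 1.69, 1.98, 2.36 and 1.72 in WT DEN + PB. In KO it read 0.14, 0.03, 0.10 and 0.44 under DEN and 1.61, 1.35, 1.94 and 0.97 under DEN + PB. The KO DEN arrays lay below all arrays of the other 3 groups. PB raised Lpl 2.44-fold in KO (1.29 ± 0.24, adjusted p = 0.00886 by limma), and under DEN KO arrays were 2.23-fold below WT arrays (-1.16 ± 0.24, adjusted p = 0.017). In WT the PB change was 0.60 ± 0.24 (adjusted p = 0.525), and the interaction of -0.69 ± 0.34 did not pass (adjusted p = 0.854).

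The second Lpl probe was called in the same comparisons, at 1.33 for PB in KO (adjusted p = 0.0104 by limma) and -1.33 for KO minus WT under DEN (adjusted p = 0.011). No single array ended the PB call, but the DEN call was lost without WT DEN replicate 3 (-1.0, adjusted p = 0.0592) or KO DEN replicate 2 (-1.11, adjusted p = 0.0545). Within slides the PB change in KO was 0.94, 1.21 and 1.67, and the DEN difference was -0.68 and -1.67. Lpl is also a gene of adipocytes and macrophages. Of 6 adipocyte markers tested, Cfd, Cidec and Retn were called lower in KO under DEN, beside 2.76% of all genes called. None was called for PB in KO (0 of 6 by limma, 2 at an unadjusted p under 0.05, 0 without moderation). The defining adipocyte genes Lep and Plin1 were well above background on 0 arrays and Adipoq on 1. The summed adipocyte level was 8.10 to 8.65 in WT DEN and 7.89 to 8.21 in KO DEN, which overlap. Most of this sum was a single marker, Car3, at 7.81 to 8.22 in WT DEN and 7.78 to 8.14 in KO DEN, so it says little of adipocytes. The macrophage sums given above were lower in KO DEN than in WT DEN without overlap. For PB in KO 0 of 10 macrophage markers were called by limma or without moderation, with 4 at an unadjusted p under 0.05. The median change of the 10 was -0.34. The part of these cells in the Lpl differences was not tested.

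Cd36, a transporter that takes up fatty acids, read 3.09, 2.32, 2.80 and 2.66 in WT DEN and 2.92, 2.7, 3.03 and 3.89 in WT DEN + PB. The KO arrays gave 2.19, 2.17, 2.74 and 2.31 under DEN and 3.49, 2.79, 3.34 and 3.32 under DEN + PB. The KO groups did not overlap and the WT groups did. The PB change was 0.88 ± 0.25 in KO (adjusted p = 0.0865 by limma) and 0.42 ± 0.25 in WT (adjusted p = 0.818). Without WT DEN + PB replicate 4, the highest array, the KO change passed with an adjusted p of 0.0307. The Cd36 promoter shown above holds a DR1 with 2 mismatches.

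Slc27a1 and Slc27a2 encode transporters that also activate fatty acids. Slc27a1 ranged from -0.76 to -0.11 in KO DEN and from -0.01 to 0.23 in KO DEN + PB, which did not overlap (0.58 ± 0.17, adjusted p = 0.119 by limma), and its WT change was -0.03. Slc27a2 had a PB change of -0.42 ± 0.17 in WT and of 0.20 ± 0.17 in KO, with an interaction of -0.62 ± 0.24 (adjusted p = 0.676). Acot1, a cytosolic thioesterase that responds strongly to PPAR-alpha, read 5.22, 4.59, 5.38 and 4.63 in WT DEN against 4.04, 3.79, 4.22 and 4.58 in WT DEN + PB. It was the only member whose WT groups did not overlap (5.16% of all genes), though by a narrow gap, and its change of -0.80 ± 0.33 did not pass (adjusted p = 0.558).

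Fabp1, the main fatty acid binding protein of the hepatocyte, hardly moved. It read 7.95, 7.81, 7.95 and 7.56 in WT DEN and 7.31, 7.93, 7.49 and 7.97 in WT DEN + PB. For KO the values were 7.59, 8.17, 7.72 and 7.68 under DEN and 7.93, 7.82, 8.37 and 7.81 under DEN + PB. All groups overlapped, and the PB change was -0.14 ± 0.19 in WT and 0.19 ± 0.19 in KO. Its promoter holds the DR1 with 1 mismatch that is shown above.

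Across the 48 members, 8 did not overlap between KO DEN and KO DEN + PB (8.6% of all genes): Lpl, Cd36, Slc27a1, Vnn1, Creb3l3 and Cpt1a were higher with PB, and Pdk4 and Fgf21 were lower. In KO minus WT, 3 did not overlap under DEN (10.9% of all genes) and 6 under DEN + PB (17.3% of all genes). The 3 under DEN were Acot1, Vnn1 and Lpl, all lower in KO. The 6 under DEN + PB were Ppara, Decr2 and Slc27a1, higher in KO, and Pdk4, Vnn1 and Ucp2, lower. At an unadjusted p under 0.05 there were 9 members for PB in KO, 6 between the genotypes with DEN alone and 6 with DEN + PB, beside 13.3%, 18.2% and 23.4% of all genes.

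Genes of the daily clock moved with the same KO comparison. Of 16 clock and feeding genes tested, 9 were called for PB in KO and 0 by limma or without moderation for PB in WT, where 1 had an unadjusted p under 0.05. Dbp, a clock output gene, read 0.49 to 0.92 in KO DEN and 3.45 to 6.22 in KO DEN + PB (4.49 ± 0.55, adjusted p = 0.000227 by limma), while the WT arrays of both treatments lay between 3.47 and 5.49. Nr1d1, a repressor of the clock, was between -0.52 and -0.26 in KO DEN and between 0.56 and 1.99 on the other 12 arrays. Arntl, a core activator, was lower with PB in KO (-2.17 ± 0.43, adjusted p = 0.0131 by limma). It read 0.73, -1.58, -1.67 and -1.10 in KO DEN + PB against 0.88 to 1.55 in KO DEN, so replicate 1 lay close to the KO DEN arrays. Dbp and Nr1d1 were also the called clock and feeding genes for KO minus WT under DEN. For KO minus WT under DEN + PB, where Pdk4 was called, 0 of the 16 were called by limma or without moderation, and 4 had an unadjusted p under 0.05. The time of collection was not analysed here, and the part of the clock genes in the Lpl, Pdk4, Fgf21 and Vnn1 values was not tested.

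The mitochondrial genes stayed close together in all groups. None of the 15 was called in any comparison by limma or without moderation, with at most 1 at an unadjusted p under 0.05, and the largest change among them was 0.48 in KO and 0.35 in WT with PB. The median within-group SD of these genes was 0.27, as it was for all genes tested, and their standard errors ranged from 0.15 to 0.35. Cpt1a, the carnitine transferase that gates entry of long fatty acids into mitochondria, read 4.95, 4.42, 5.22 and 4.75 in WT DEN and 4.45, 4.34, 4.65 and 4.82 in WT DEN + PB. KO livers had 4.21, 4.12, 4.57 and 4.50 under DEN and 4.79, 4.80, 4.78 and 4.94 under DEN + PB. The KO groups did not overlap and the WT groups did, but neither the KO change of 0.48 ± 0.17 (adjusted p = 0.229 by limma) nor the interaction of -0.74 ± 0.25 (adjusted p = 0.528) passed. The second Cpt1a probe gave an interaction of -0.73 but a KO minus WT difference under DEN of -0.03, against -0.48 on the brightest.

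Acadm, the medium-chain dehydrogenase of beta-oxidation, read 6.67, 6.44, 6.87 and 6.41 in WT DEN and 6.28, 6.39, 6.66 and 6.94 in WT DEN + PB. Among KO arrays it was 6.28, 6.17, 6.42 and 6.19 under DEN and 6.52, 6.24, 6.58 and 6.61 under DEN + PB. All the groups compared overlapped, and the changes with PB were -0.03 ± 0.16 in WT and 0.22 ± 0.16 in KO. Hadhb, a subunit of the trifunctional protein, had the only unadjusted p under 0.05 among mitochondrial genes for PB in WT (-0.34 ± 0.16, adjusted p = 0.678). The other mitochondrial members are enzymes of the same spiral (Acadvl, Acadl, Acads, Hadha, Hadh, Acaa2), auxiliary enzymes for unsaturated chains and electron transfer (Decr1, Etfdh), the carnitine shuttle (Cpt2, Slc25a20), a thioesterase (Acot2) and the ketone body enzyme Bdh1. By sign, 12 of the 15 were lower with PB in WT (median -0.17, and 11 with quantile normalization), where 45.9% of all genes were higher. With PB in KO 10 were higher (median 0.07, and 8 with quantile normalization), beside 51.9% of all genes.

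The peroxisomal genes behaved alike. None of the 14 was called by limma or without moderation, and none had an unadjusted p under 0.05 for PB in either genotype, with changes of at most 0.37 in WT and 0.48 in KO. Ehhadh, the bifunctional enzyme of peroxisomal beta-oxidation and a standard PPAR-alpha target, read 4.98, 5.29, 5.23 and 5.12 in WT DEN and 4.65, 4.36, 4.99 and 5.18 in WT DEN + PB. In the KO mice it stood at 5.12, 4.41, 5.30 and 5.03 under DEN and 4.91, 4.66, 4.29 and 4.61 under DEN + PB. It was lower with PB by sign in both genotypes, at -0.36 ± 0.21 in WT and -0.35 ± 0.21 in KO, with overlapping groups. Acaa1b, a peroxisomal thiolase, had the lowest unadjusted p among these genes for KO minus WT under DEN (-0.40 ± 0.19, adjusted p = 0.244 by limma). Decr2, a reductase for unsaturated chains, read 2.91 on WT DEN replicate 3 and between 3.46 and 4.31 on the other 15 arrays.

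Across the peroxisomal genes 13 of 14 were lower in KO than in WT under DEN by sign (median -0.15), where 45.1% of all genes were higher. Again 13 were lower with quantile normalization, but 6 after normexp background correction. The within-group SD was widest for the dim thioesterase Acot3, which ranged from -2.58 to near 0. On the brightest probes the widest change in any comparison, -0.60 ± 0.37 for the transporter Abcd2 under DEN, was less than 2 standard errors. Further probes of Crot and Abcd3 gave -0.85 ± 0.37 and -0.78 ± 0.35 for KO minus WT under DEN + PB. Neither was called (adjusted p = 0.177 and 0.193 by limma), and the brightest probes gave -0.26 and -0.14. Over all further member probes tested, 84 of 100 changes shared the sign of the brightest probe. Pex11a, which drives the division of peroxisomes, ranged from 4.76 to 6.10 and stood near 6.1 on WT DEN replicates 1 and 3 and WT DEN + PB replicate 4. The probes of Acaa1a and Acaa1b, and those of Acot1 to Acot4, belong to close paralogues and may share signal.

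The Cyp4a genes encode omega-hydroxylases of fatty acids and include some of the most inducible PPAR-alpha targets of mouse liver. They had the widest spread of the groups of members, with a median within-group SD of 0.69 against 0.30 over all members. Cyp4a14 read 7.18, 6.51, 7.45 and 6.44 in WT DEN and 4.93, 3.76, 6.42 and 6.87 in WT DEN + PB. KO values were 6.30, 7.28, 7.02 and 6.43 under DEN and 5.89, 5.71, 4.73 and 6.71 under DEN + PB. In each PB group 3 of the 4 arrays fell below the range of the DEN arrays and 1 lay within it, so that the groups overlapped. The changes of -1.40 ± 0.55 in WT (adjusted p = 0.515 by limma) and -1.0 ± 0.55 in KO (adjusted p = 0.522) did not pass.

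Cyp4a10 read 5.39, 4.61, 5.68 and 4.94 in WT DEN and 4.51, 4.42, 5.40 and 6.23 in WT DEN + PB. The KO arrays gave 3.96, 4.41, 5.21 and 3.77 under DEN and 5.51, 4.51, 4.39 and 5.33 under DEN + PB. Its PB change was -0.01 ± 0.41 in WT and 0.60 ± 0.41 in KO, so that it did not share the sign of Cyp4a14 in KO. Cyp4a31 read -1.42, -1.38, -0.80 and -1.17 in WT DEN and -1.07, -1.94, -0.96 and 0.01 in WT DEN + PB. For KO the values were -2.13, -3.41, -1.17 and -2.10 under DEN and -1.22, -1.87, -2.71 and -1.04 under DEN + PB. Its KO minus WT difference under DEN was -1.01 ± 0.46 and that of Cyp4a10 was -0.82 ± 0.41, neither called (adjusted p = 0.227 and 0.276). These genes are near-identical copies whose probes may share signal.

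Cyp4a12a, which is known as the male-biased member of the family, read 5.32, 5.47, 5.49 and 5.87 in WT DEN and 5.45, 5.82, 5.53 and 5.96 in WT DEN + PB. KO livers had 5.69, 5.17, 5.56 and 5.52 under DEN and 6.58, 5.62, 6.20 and 4.80 under DEN + PB. The last group spanned all the others. Its PB change was 0.15 ± 0.29 in WT and 0.32 ± 0.29 in KO. Other targets of PB did respond in the same livers: 4 of 10 CAR target genes were called higher in WT and 7 of 10 in KO, among them Cyp2b10, which was at least 4.72 on PB arrays and at most 0.75 on DEN arrays.

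**Figure D3:**
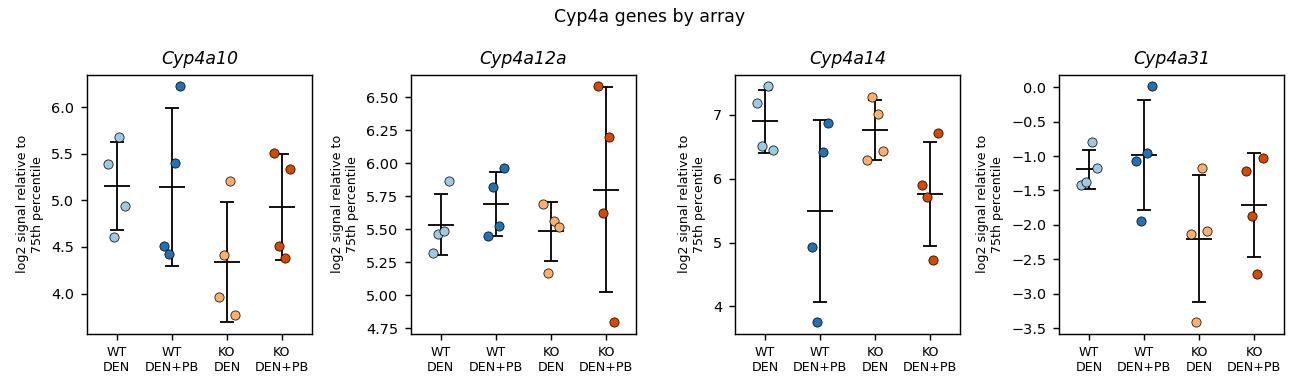
Log2 signal over the 75th percentile of each array (vertical axis) of the 4 Cyp4a genes by group, with 1 point per array and bars for the mean ± SD of 4 arrays. Cyp4a14 spreads from 3.76 to 6.87 within WT DEN + PB, and no gene separates the PB arrays from the DEN arrays of either genotype. Vertical axes differ between panels.

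Much of the spread of the members was shared by whole arrays. For each array the deviation of each member from its own mean over 16 arrays was taken, and the median over the 48 members was read. It was 0.40 on WT DEN replicate 3 and 0.27 on WT DEN replicate 1, where 45 of 48 members lay above their mean, but -0.07 and -0.06 on replicates 2 and 4. Among the WT DEN + PB arrays it was 0.31 on replicate 4, with 42 of 48 members above their mean, and -0.21 and -0.16 on replicates 1 and 2, with 10 and 9 above. The KO DEN arrays lay between -0.15 and 0.02 and the KO DEN + PB arrays between -0.18 and 0.13.

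The mitochondrial and peroxisomal genes followed this pattern separately. On WT DEN replicate 3 their medians were 0.36 and 0.40, and on WT DEN + PB replicate 4 they were 0.18 and 0.39. The range of the array medians within WT DEN exceeded the difference between the WT groups. Leaving out 1 array at a time, the median change of the members with PB in WT lay between -0.25 and -0.07.

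**Figure D4:**
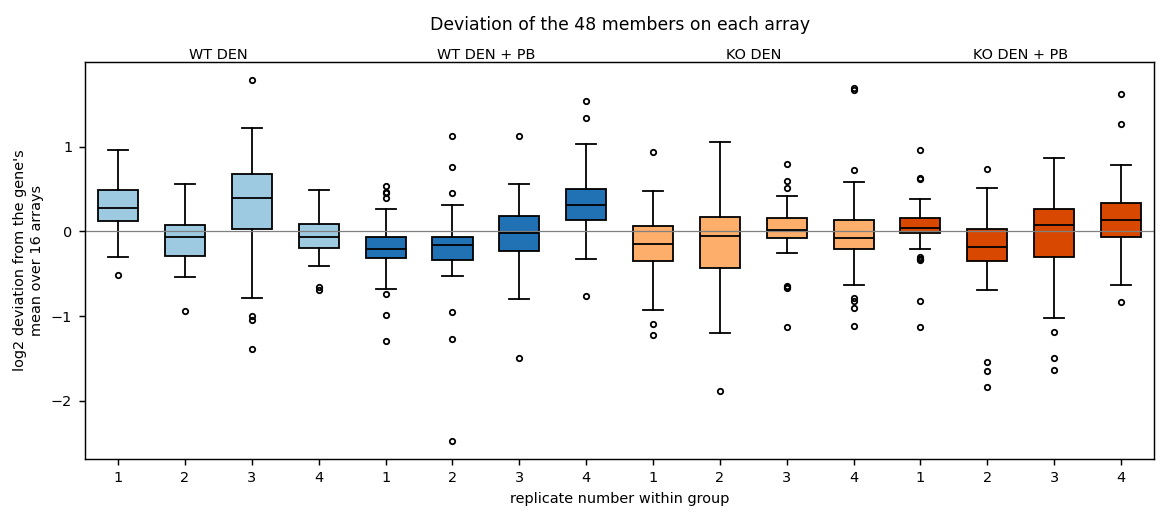
Log2 deviation of each of the 48 members from its own mean over all 16 arrays (vertical axis), as 1 box per array with the median, the quartiles, whiskers to 1.5 times the interquartile range and points beyond them. WT DEN replicates 1 and 3 and WT DEN + PB replicate 4 have the highest medians (0.27, 0.40 and 0.31), so that the medians spread more within WT DEN than between the groups.

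Other genes of the pathway, of which 98 of the 107 reported here were tested, also gave few calls, at shares no higher than those of all genes. Among these 98, limma called 0 for PB in WT, 0 for PB in KO and 0 for the interaction, beside 0.737%, 2.13% and 0% of all genes. At an unadjusted p under 0.05 there were 8, 12 and 4, beside 8.31%, 13.3% and 6.62% of all genes. None of the 3 comparisons had a call among the 98 without moderation of the variances. Under DEN 2 were called in KO minus WT (2.04%, against 2.76% of all genes). Acsm2, a medium-chain acyl-CoA synthetase, was higher (2.08, adjusted p = 0.0475 by limma, well above background on 4 of 4 KO DEN and 3 of 4 WT DEN arrays). Cyp4b1, another fatty acid hydroxylase, was lower (-0.93, adjusted p = 0.00827). Under DEN + PB 5 were called (5.1%, against 7.61% of all genes). The 3 of largest change were Cyp4b1, again lower in KO (-1.0, adjusted p = 0.00201), Bdh2, a dehydrogenase linked to ketone bodies, which was higher (0.84, adjusted p = 0.0481), and Apoa5, an activator of lipoprotein lipase, which was higher (0.75, adjusted p = 0.0458). By sign 72 of the 98 were lower with PB in WT (median -0.16, and 70 with quantile normalization), where 45.9% of all genes were higher. With PB in KO 58 were higher (median 0.06, and 50 with quantile normalization), beside 51.9% of all genes.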

How the data were processed

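Liver RNA of 16 mice was hybridised to 1-colour Agilent arrays (Cy3), read with Feature Extraction 12.0.3.1 per the file headers. The deposited intensity is the processed signal, which the authors' software corrected for background on each array, without scaling between arrays. The series table that the authors deposited held these intensity values averaged per probe (99.8% of values within 0.01%). The study's own test was an ANOVA with Benjamini-Hochberg adjustment. No spot was saturated, and 71 to 122 of 43379 spots per array with an outlier mark were left out. Log2 signal minus the array's 75th percentile was used. A probe was tested if some group had it well above background on its 4 arrays (24454 of 41174 probes). RefSeq accessions gave a symbol to 68.5% of probes. Models of 4 group means over 16 arrays were fitted with limma 3.58.1 in R 4.3.3 and adjusted over all probes tested, after tests on simulated data. Precision is limited by the number of arrays.

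Of 48 members, 15 had more than 1 probe, and 1 of 69 member probes was not tested. The array design uses an older genome build, so the gene table (GRCm38.p6) served for names and gene order, and coordinates are given for its promoters only. Genes shown with every array's value were 12 members chosen by name and all members called. Other members are named at an unadjusted p under 0.05, where groups did not overlap, or where their values stood out, and pathway genes where called, at most the 3 of largest change. Of the listed pathway genes 1 is not reported here and was left out of their counts and medians. The members, the gene lists and these rules were chosen with earlier results of these data known. Alternatives were normexp (offset 50, on the median signal, since the files used here hold no mean signal), quantile normalization, the series table, other probe filters, the mean of a gene's probes, slide or replicate number as a block, only the groups compared, no moderation, and leaving out each array.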

Additional observations from a re-analysis of the deposited data

Results flagged for a closer look

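Within each group of 4 arrays, the gap from the highest or lowest array to the nearest other was set against the group's range for all 48 members. In 6 of 192 sets it passed Dixon's 95% critical value, which chance passes in about 1 of 20 sets. Decr2 stood low on WT DEN replicate 3 (2.91) and Acot3 high on WT DEN replicate 1 (-0.84). Cpt2 stood high on WT DEN + PB replicate 4 (6.28). In KO, Angptl4 stood low on DEN replicate 1 (5.42), Ucp2 high on DEN replicate 4 (-0.85) and Cpt1a high on DEN + PB replicate 4 (4.94).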

How the results depend on the processing

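No member was called for PB in WT or for the interaction under any alternative run, leaving out each array included. For PB in KO, 2 members were called, against 0 after normexp background correction and 1 (Lpl) without a filter on dim probes, with the replicate block, or by the ANOVA without moderation. Leaving out 1 array gave 1 to 3. For KO minus WT under DEN, 2 were called, against 0 after normexp, 0 on the series table without scaling and 1 (Lpl) with slide as a block, and 0 to 2 with 1 array left out. Under DEN + PB, 3 were called, against 0 after normexp and 1 (Pdk4) without a filter, and 2 to 4 with 1 array left out. The cause of these changes was not tested.

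The median change of the members moved beyond the spread between arrays on the unscaled series table, to -0.21 for PB in KO, 0.15 for the interaction and -0.27 for KO minus WT under DEN + PB, where all genes moved likewise, to -0.29, 0.35 and -0.31. After normexp it was 0.0562 for KO minus WT under DEN. With 1 array left out the medians ranged from -0.25 to -0.07 (PB in WT), 0.06 to 0.13 (PB in KO), -0.34 to -0.18 (interaction), -0.22 to -0.07 (DEN) and -0.01 to 0.16 (DEN + PB). The replicate block changed no median and, beside Pdk4 for PB in KO (adjusted p = 0.0513 by limma), ended no other call. The numbers do not pair the mice: over 24 same-numbered pairs of arrays the deviations correlated at -0.21 to 0.36, with 6 above 0.1. With only the groups compared in the fit, Pdk4 for PB in KO (adjusted p = 0.133) and Ppara under DEN + PB (0.0512) were lost and Fgf21 for PB in KO passed (adjusted p = 0.0212). Of 182 values of the 7 called changes of single genes, 148 still passed, 34 did not and 0 reversed. For the interaction, the groups compared are all groups, so that alternative was not run.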
